A study of Mus musculus with 5 samples.

Results

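The genes described here are 6 genes of bone morphogenetic protein (BMP) ligands, Bmp2, Bmp3, Bmp4, Bmp5, Bmp6 and Bmp8a, and 4 genes of secreted BMP antagonists or modulators, Grem1, Chrdl1, Nog and Bmper. They were taken from a fixed list by gene symbol, 10 of the 30099 symbols in the count tables, and all 10 were listed in all 5 libraries. Cells positive for tdTomato were sorted from the femurs of mice and their RNA was read cell by cell on the BD Rhapsody platform. The mice of every group carried Lepr-cre and the R26R-tdTomato reporter, so that Cre driven by the leptin receptor gene Lepr marks a cell and its descendants. The injury was bone marrow ablation, the surgical removal of marrow from the bone cavity. The aged-injury library came from mice of 18 months, 1 week after 1 ablation. The exhausted library came from mice of 15 weeks ablated at 9 and 13 weeks, and the naive library from mice of 15 weeks ablated at 13 weeks, which is 2 weeks after the last surgery in both. Uninjured mice gave the aged library at 18 months and the control library at 15 weeks. Each group was 1 library, the number of animals in it is not given in the labels used here, and aged-injury differs from naive in age and in time after surgery at once. No difference between groups could be set against a spread between animals, so no test was made, and the intervals in brackets are 95% intervals for counting error only.

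BMPs are secreted proteins of the TGF-beta superfamily that bind pairs of type I and type II receptors on the cell surface, which phosphorylate SMAD1, SMAD5 and SMAD9 and turn on targets such as the Id genes. They were found through their capacity to induce bone, and marrow stroma both makes them and differentiates in response to them. Gremlin 1 (Grem1), chordin-like 1 (Chrdl1) and noggin (Nog) bind BMP ligands outside the cell and keep them from their receptors, whereas BMPER (Bmper) binds BMPs and has been described as an inhibitor and as an enhancer of their signalling.

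The 250 bases upstream of the annotated start are shown for Grem1, Bmp6 and Bmp4, which were higher in reticular-like than in osteoblast-like cells in all 5 libraries, and for Bmp8a, which was lower there. They are RefSeq sequence of build GRCm38.p6, printed in the direction of the gene, at chr2:113758649-113758898 on the minus strand for Grem1, chr13:38345466-38345715 on the plus strand for Bmp6, chr14:46390670-46390919 on the minus strand for Bmp4 and chr4:123343253-123343502 on the minus strand for Bmp8a. Capitals mark GC boxes, GGGCGG or its reverse complement.
Grem1: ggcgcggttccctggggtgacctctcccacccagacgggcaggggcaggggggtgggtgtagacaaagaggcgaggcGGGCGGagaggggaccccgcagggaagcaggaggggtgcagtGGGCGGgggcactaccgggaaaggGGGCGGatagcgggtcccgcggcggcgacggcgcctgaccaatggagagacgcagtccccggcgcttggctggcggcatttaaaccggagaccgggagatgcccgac
Bmp6: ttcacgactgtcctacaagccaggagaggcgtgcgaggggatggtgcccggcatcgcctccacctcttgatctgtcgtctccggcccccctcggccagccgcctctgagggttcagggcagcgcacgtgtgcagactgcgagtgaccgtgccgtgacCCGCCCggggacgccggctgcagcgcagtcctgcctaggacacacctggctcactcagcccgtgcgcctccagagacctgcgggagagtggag
Bmp4: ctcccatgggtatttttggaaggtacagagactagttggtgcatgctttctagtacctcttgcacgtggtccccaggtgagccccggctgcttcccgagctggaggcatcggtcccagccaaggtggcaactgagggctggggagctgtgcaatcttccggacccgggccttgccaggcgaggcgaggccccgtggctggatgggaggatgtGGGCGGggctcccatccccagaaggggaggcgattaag
Bmp8a: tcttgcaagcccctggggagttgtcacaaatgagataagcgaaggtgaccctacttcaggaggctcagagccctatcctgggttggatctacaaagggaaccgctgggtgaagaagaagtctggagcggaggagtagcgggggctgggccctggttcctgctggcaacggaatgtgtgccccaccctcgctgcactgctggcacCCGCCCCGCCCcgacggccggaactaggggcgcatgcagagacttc
The RefSeq promoter table had an entry for 6 of the 10 genes. The GC box was found 3 times for Grem1, the last of them 107 bases before the start, 2 times for Bmp8a, where the matches overlap, 1 time each for Bmp6, Bmp4 and Bmper, and not for Bmp5, against 32.7% of all 32851 promoters in the table with at least 1. The TATA box TATAAA, the palindromic EBF motif and the RUNX motif TGTGGT, searched on both strands, had no match in the 6 windows and were found in 12.4%, 0.779% and 14.05% of all promoters.

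After filtering, 47829 of 57968 cells were kept, from 5242 to 19497 per library, with a median of 6671 to 9512 UMIs (unique molecular identifiers, 1 per captured RNA molecule) per cell. Clusters named from markers gave a stroma of 38776 cells, which was 93.9% of kept cells in aged-injury, 45.9% in exhausted, 70.8% in naive, 89.2% in aged and 77.1% in control. The stroma had 23038143 to 208023213 UMIs per library, the most in aged-injury. The filter kept 93.4% of cells in aged-injury and 70.1% to 82.6% in the other libraries. Levels are in CPM, the UMIs of a gene per 1000000 UMIs of the cells summed. In the stroma Ptprc, the pan-leukocyte gene, was at 0.3 to 7.4 CPM and Lepr itself at 1701 to 4365 CPM. All 11 reticular markers had counts in the reticular-like cells of all 5 libraries. The class was named from these markers, so their counts are no separate check on its identity. Between libraries, 21 cell labels occurred in more than 1. Summed erythroid markers in the stroma stood at 143 CPM in aged-injury, 761 CPM in exhausted, 650.2 CPM in naive, 541 CPM in aged and 877 CPM in control, and neutrophil markers at 8.5 to 245 CPM, with none of either list at 0, and their part in the results was not tested.

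The cell classes behind the stromal sums differed between libraries. Reticular-like cells, the Cxcl12-rich stromal cells around marrow vessels, were 43.5% of stromal cells in aged-injury, 53.4% in exhausted, 31.5% in naive, 74.6% in aged and 75.6% in control. Preosteoblast-like cells were 9.10% in aged-injury, 13.2% in exhausted, 18.0% in naive, 5.34% in aged and 6.66% in control. They also carried reticular markers, which summed to 29009 to 40058 CPM in them, against 16234 to 20882 CPM for the preosteoblast markers. Osteoblast-like cells were 3.92% in aged-injury, 1.18% in exhausted, 1.21% in naive, 0.36% in aged and 0.53% in control, and an unnamed cluster led by Dmp1 and Spp1, genes of late osteoblasts and osteocytes, was 3.99%, 3.40%, 6.23%, 1.93% and 2.20% in the same order. Within the reticular-like class a cluster led by Cbln2 and Cbln1 held 56.1% of the cells in aged-injury, 43.4% in exhausted and 46.6% in naive, while a cluster led by Gpr50 held 43.1% in aged and 57.6% in control. Of the preosteoblast-like class, a cluster led by Plppr5 and Wif1 held 41.9% in aged-injury, 31.3% in exhausted, 31.0% in naive, 44.7% in aged and 62.3% in control. A cluster led by Htr1b held the rest.

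**Figure D1:**
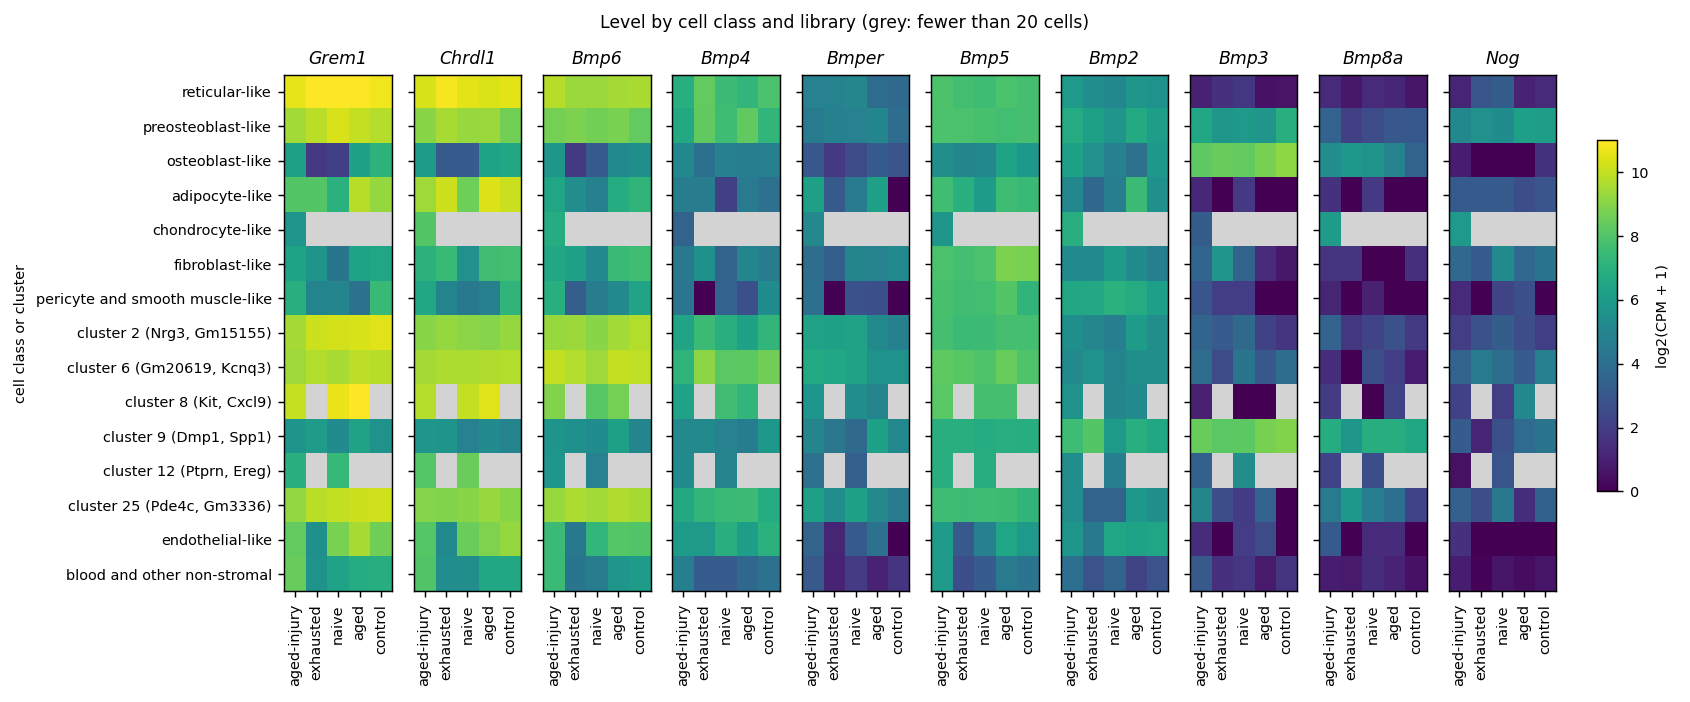
Level of each gene as log2(CPM + 1), by colour, in cell classes and unnamed clusters (rows) and libraries (columns), with grey for fewer than 20 cells. Grem1, Chrdl1 and Bmp6 are bright in the reticular-like row, while Bmp3 is bright in the osteoblast-like row and in the Dmp1-led cluster 9 and dark in the reticular-like row. Bmp8a is dimmer than Bmp3 in the osteoblast-like row and in cluster 9, but above its own reticular-like row.

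Among the ligands, Bmp6, which in the liver signals iron status to hepcidin, was a gene of the reticular and preosteoblast side. In reticular-like cells it stood at 889.9 CPM in aged-injury, 641 CPM in exhausted, 653 CPM in naive, 738 CPM in aged and 784 CPM in control, and in osteoblast-like cells at 2.57 to 54.9 CPM. The reticular-like cells supplied 67.7% of the Bmp6 UMIs of the stroma in aged-injury, 65.001% in exhausted, 44.0% in naive, 84.5% in aged and 87.1% in control. An unnamed stromal cluster led by Gm20619 and Kcnq3, whose cells had few UMIs, had a higher Bmp6 level than reticular-like cells in all 5 libraries. It gave 2.60% to 13.2% of the Bmp6 UMIs of the stroma. Over the whole stroma Bmp6 was at 499 CPM in aged-injury, 528 CPM in exhausted, 440.2 CPM in naive, 696 CPM in aged and 703 CPM in control. Both uninjured libraries were thus above the 3 ablated ones. The ratio over the stroma was 0.626 (0.614 to 0.638) for naive over control, 0.751 (0.736 to 0.766) for exhausted over control and 0.717 (0.708 to 0.725) for aged-injury over aged. With class shares held as in the uninjured library, those ratios were 0.834, 0.838 and 1.16, the last on the other side of 1. Within reticular-like cells the ratio was 0.834 (0.812 to 0.856) for naive over control and 1.21 (1.19 to 1.22) for aged-injury over aged, which was 0.868 when each cell was gated by itself.

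Bmp4, a ligand of limb, bone and marrow development, was read in reticular-like cells at 123 CPM in aged-injury, 326 CPM in exhausted, 188 CPM in naive, 149 CPM in aged and 238 CPM in control. The stromal sums had the same order at the ends, with 83.4 CPM in aged-injury, 276 CPM in exhausted, 153 CPM in naive, 158 CPM in aged and 215 CPM in control. Exhausted was the highest library and aged-injury the lowest in both. Exhausted over naive was 1.80 (1.73 to 1.87) in stroma and 1.74 (1.64 to 1.84) in reticular-like cells, and exhausted over control was 1.28 (1.25 to 1.32) and 1.37 (1.32 to 1.42) in the same order. Exhausted was also above naive in 4 of the 5 reticular-like clusters, the exception being the cluster led by Cntn1 and Ccl2, with 199.8 CPM in exhausted against 208 CPM in naive. In preosteoblast-like cells Bmp4 was at 102 CPM in aged-injury, 315 CPM in exhausted, 190.0 CPM in naive, 316 CPM in aged and 149 CPM in control, so aged and exhausted stood together at the top, and in aged and naive these cells were at or above the reticular-like ones. The ratio of aged-injury over aged in these cells was 0.324 (0.301 to 0.348), with 0.336 in the preosteoblast-like cluster led by Htr1b and 0.319 in the one led by Plppr5 and Wif1. The part of the differing cluster shares in the order of the libraries was not tested.

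Bmp5, a ligand first known from the short ear mutation of mice, was the most even of the 10 genes between libraries. The stroma had 203 CPM in aged-injury, 199 CPM in exhausted, 187 CPM in naive, 235 CPM in aged and 218 CPM in control. The 6 stromal ratios computed lay between 0.854 and 1.09. By class it was at 188 to 245 CPM in reticular-like and 206 to 235 CPM in preosteoblast-like cells, and lower in osteoblast-like cells, at 30.9 to 82.8 CPM. Fibroblast-like cells had 225 CPM in aged-injury, 210.3 CPM in exhausted, 234 CPM in naive, 453 CPM in aged and 444 CPM in control, so both uninjured libraries were above the ablated ones there, from 33 to 481 cells per library.

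Bmp2, a ligand needed for fracture repair in mice, was spread over many classes. Stromal sums were 69.3 CPM in aged-injury, 55.2 CPM in exhausted, 41.9 CPM in naive, 60.3 CPM in aged and 51.2 CPM in control, with aged-injury highest and naive lowest. The Dmp1-led cluster had 190.1 CPM in aged-injury, 262 CPM in exhausted, 63.6 CPM in naive, 124 CPM in aged and 91.7 CPM in control, above the reticular-like cells of the same library in each case. Reticular-like cells had 59.75 CPM in aged-injury, 40.9 CPM in exhausted, 33.6 CPM in naive, 55.2 CPM in aged and 49.5 CPM in control. Pericyte and smooth muscle-like cells had 72.8 to 129 CPM over the 5 libraries. Aged-injury over naive was 1.66 (1.57 to 1.75) in stroma and 1.78 (1.59 to 1.99) in reticular-like cells.

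Bmp3, the ligand that opposes osteogenic BMPs and lowers bone density, was a gene of the bone-forming cells. Osteoblast-like cells had 306 CPM in aged-injury, 342 CPM in exhausted, 323 CPM in naive, 431 CPM in aged and 553 CPM in control, from 24 to 717 cells per library. The Dmp1-led cluster had 345 CPM in aged-injury, 294 CPM in exhausted, 303 CPM in naive, 427 CPM in aged and 482 CPM in control. In both, the 2 uninjured libraries were above the 3 ablated ones. Preosteoblast-like cells, which gave 20.4% to 37.7% of the Bmp3 UMIs of the stroma, had another order, with 96.6 CPM in aged-injury, 55.6 CPM in exhausted, 58.7 CPM in naive, 53.1 CPM in aged and 124 CPM in control. Control was highest there and aged lowest, and aged-injury over aged was 1.82 (1.57 to 2.12), with the same direction in both preosteoblast-like clusters. The Plppr5-led cluster was 62.3% of the class in control and 31.0% to 44.7% in the other libraries, and its part in this order was not tested. Reticular-like cells had 0.43 to 2.47 CPM, and blood and other non-stromal cells 0.73 to 7.31 CPM. In the stroma as a whole the order was different, with 52.7 CPM in aged-injury, 31.5 CPM in exhausted, 47.97 CPM in naive, 15.2 CPM in aged and 28.2 CPM in control. Aged-injury over aged was 3.47 (3.22 to 3.74) and naive over control 1.70 (1.59 to 1.82), and these ratios became 1.15 and 0.655 when the classes were weighted by their shares of stromal UMIs in the uninjured library. In osteoblast-like cells the same ratios were 0.710 (0.584 to 0.871) and 0.584 (0.484 to 0.704). Erythroid markers in the osteoblast-like cells summed to 363 CPM in aged-injury, 11001 CPM in exhausted, 341 CPM in naive, 381 CPM in aged and 2198 CPM in control, and their part in these values was not tested.

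Bmp8a was likewise high in the Dmp1-led cluster. That cluster had 110.0 CPM in aged-injury, 56.3 CPM in exhausted, 114 CPM in naive, 113 CPM in aged and 92.9 CPM in control, and gave 42.2% to 64.8% of the Bmp8a UMIs of the stroma. Exhausted was the lowest library in that cluster, with a ratio of 0.493 (0.353 to 0.676) over naive. Osteoblast-like cells had 41.5 CPM in aged-injury, 56.6 CPM in exhausted, 48.5 CPM in naive, 29.0 CPM in aged and 10.2 CPM in control, from 5 to 585 UMIs. Exhausted was the highest there, at 1.17 (0.642 to 2.09) times naive, an interval that spans 1. The stroma had 13.4 CPM in aged-injury, 4.73 CPM in exhausted, 12.6 CPM in naive, 4.42 CPM in aged and 3.74 CPM in control, so aged-injury and naive stood above the other 3. Naive over control was 3.38 (2.88 to 3.98), aged-injury over aged 3.02 (2.63 to 3.48) and exhausted over naive 0.374 (0.300 to 0.463). With class shares held as in the uninjured library the first 2 ratios were 1.44 and 1.15. In aged-injury the 227 chondrocyte-like cells, a class with at most 3 cells in any other library, were at 66.7 CPM. Bmp8a and Bmp8b are near-identical neighbours, so reads of one may have been counted for the other.

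Of the antagonists, Grem1 was read at 1541 CPM in aged-injury, 2124 CPM in exhausted, 2295 CPM in naive, 2001 CPM in aged and 1718 CPM in control reticular-like cells. Aged-injury was the lowest and naive the highest. In the stroma it was at 841 CPM in aged-injury, 1481 CPM in exhausted, 1276 CPM in naive, 1777 CPM in aged and 1509.6 CPM in control. Aged-injury over aged was 0.473 (0.469 to 0.477) in stroma, 0.756 with class shares held as in aged, and 0.770 (0.763 to 0.777) within reticular-like cells. The difference had the same direction in each of the 5 reticular-like clusters, with ratios of 0.546 to 0.773. The stromal ratio was 0.550 when each cell weighed the same, 0.563 with possible doublets left out and 0.599 without the 4 clusters that came mostly from 1 library. Naive over control was 0.846 (0.836 to 0.855) in stroma but 1.34 (1.32 to 1.36) in reticular-like cells, where 4 of the 5 clusters were higher in naive and the cluster led by Igfbp4 was lower, at 1077 CPM in naive against 1632 CPM in control. Osteoblast-like cells had 2.57 to 137 CPM.

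Chrdl1 had nearly the same distribution over cells. Reticular-like cells had 1281 CPM in aged-injury, 1862 CPM in exhausted, 1499 CPM in naive, 1336 CPM in aged and 1487 CPM in control, and osteoblast-like cells 7.72 to 92.2 CPM. Adipocyte-like cells had 696 CPM in aged-injury, 1133 CPM in exhausted, 378 CPM in naive, 1365 CPM in aged and 1106 CPM in control, from 20 to 217 cells. Their adipocyte markers were uneven and mostly lowest in aged, where Pck1 and Thrsp had no UMI. Plin1 was at 533 CPM in aged-injury, 612 CPM in exhausted, 1288 CPM in naive, 74.3 CPM in aged and 758 CPM in control. In the stroma Chrdl1 was at 731 CPM in aged-injury, 1275 CPM in exhausted, 796 CPM in naive, 1182 CPM in aged and 1256 CPM in control. Aged-injury and naive were therefore apart from the other 3, with 0.618 (0.612 to 0.624) for aged-injury over aged, 0.633 (0.625 to 0.642) for naive over control and 1.60 (1.57 to 1.63) for exhausted over naive. With class shares held, those ratios were 0.946, 1.01 and 1.25. Within reticular-like cells exhausted over control was 1.25 (1.23 to 1.27) and exhausted over naive 1.24 (1.22 to 1.27).

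Nog, which when lost in mice lets cartilage and joints fuse, was read mainly in preosteoblast-like cells, which gave 50.8% to 72.6% of its stromal UMIs. These cells had 34.4 CPM in aged-injury, 45.8 CPM in exhausted, 40.4 CPM in naive, 73.0 CPM in aged and 71.8 CPM in control, with the 3 ablated libraries below the 2 uninjured ones. The ratio was 0.471 (0.409 to 0.544) for aged-injury over aged, 0.562 (0.484 to 0.652) for naive over control and 0.637 (0.537 to 0.755) for exhausted over control. Both preosteoblast-like clusters had these directions in all 3 comparisons, with ratios of 0.345 and 0.673 for aged-injury over aged. Erythroid markers in these cells summed to 146 CPM in aged-injury, 493 CPM in exhausted, 345 CPM in naive, 1483 CPM in aged and 1387 CPM in control, also lower in the 3 ablated libraries, and their part in the result was not tested. The stromal sums ran otherwise, at 7.54 CPM in aged-injury, 14.5 CPM in exhausted, 16.9 CPM in naive, 7.23 CPM in aged and 9.04 CPM in control, so that exhausted and naive were highest. With class shares held as in the second library of each pair, naive over control was 1.32 and exhausted over control 1.10. By the same measure aged-injury over aged was 0.602 and aged-injury over naive 0.694. Reticular-like cells had 1.18 CPM in aged-injury, 6.48 CPM in exhausted, 8.43 CPM in naive, 1.09 CPM in aged and 1.53 CPM in control. Their ratio of naive over control was 5.52 (3.99 to 7.64), and over the alternatives run it lay between 2.17, when the 10 genes were among the clustering genes, and 9.26 with the stricter cell filter. By cluster it differed, and the class was made up of different clusters in the 2 libraries. The Cbln2-led cluster, 46.6% of the class in naive and 4.11% in control, had 9.86 CPM in naive and 7.68 CPM in control, a ratio of 1.28 (0.758 to 2.28). The Gpr50-led cluster, 13.1% of the class in naive and 57.6% in control, had 10.3 CPM in naive and 1.22 CPM in control, a ratio of 8.41 (3.84 to 17.0) from 11 and 34 UMIs. The Igfbp4-led cluster had 5.49 CPM in naive and 6.13 CPM in control, and the one led by Tenm2 2.63 CPM in naive and 2.31 CPM in control, both from few UMIs. The chondrocyte-like cells of aged-injury had 61.3 CPM (54.7 to 68.4) and gave 20.2% of the Nog UMIs of that stroma.

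Bmper was higher in the ablated library of each pair in stroma and in reticular-like cells. The stroma had 31.2 CPM in aged-injury, 31.6 CPM in exhausted, 38.1 CPM in naive, 18.9 CPM in aged and 14.95 CPM in control. Reticular-like cells had 28.7 CPM in aged-injury, 27.95 CPM in exhausted, 32.9 CPM in naive, 13.7 CPM in aged and 12.5 CPM in control. All 3 ablated libraries were above both uninjured ones in either sum. In reticular-like cells naive over control was 2.63 (2.29 to 3.01), exhausted over control 2.23 (1.95 to 2.55) and aged-injury over aged 2.10 (1.91 to 2.31). In stroma these ratios were 2.55 (2.34 to 2.78), 2.12 (1.92 to 2.33) and 1.65 (1.54 to 1.77), and with class shares held 2.30, 1.99 and 1.75. The direction was the same in each of the 5 reticular-like clusters for all 3 pairs. In preosteoblast-like cells aged-injury over aged went the other way, at 0.685 (0.559 to 0.846). In the 3 ablated libraries the highest levels were in unnamed clusters of shallow cells, one led by Nrg3, at 27.4 to 80.9 CPM over the 5 libraries, and one led by Gm20619 and Kcnq3, at 47.8 to 104 CPM. In aged the highest were the Dmp1-led cluster, at 77.6 CPM, and the adipocyte-like cells, at 74.3 CPM from 20 cells. Adipocyte markers were low in those 20 cells, with Cidec at 10.6 CPM against 767 CPM in naive. The Nrg3-led cluster held 15.2% of stromal cells in aged-injury, 14.6% in exhausted, 15.9% in naive, 7.24% in aged and 6.31% in control. Without the shallow clusters the stromal ratios were 1.92 for naive over control and 1.83 for exhausted over control.

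**Figure D2:**
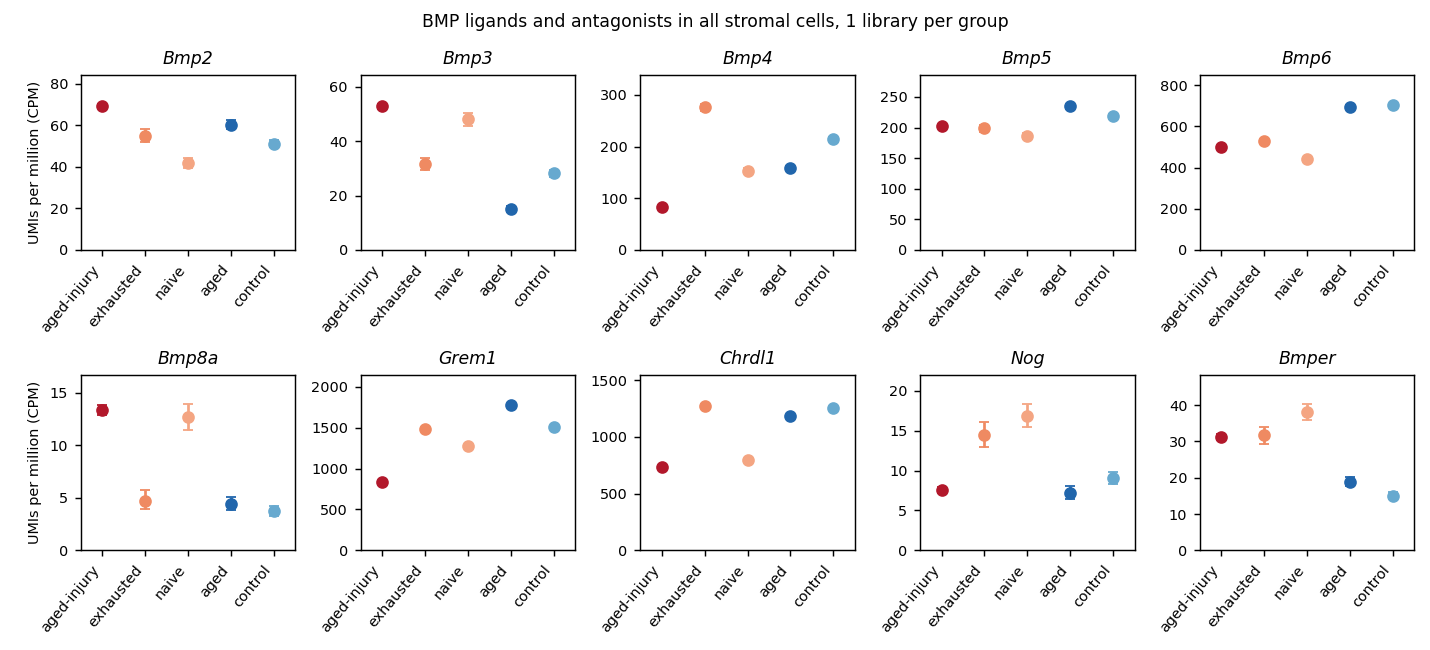
CPM in all stromal cells of each library (1 point per library) with 95% Poisson counting intervals, 1 panel per gene and axes from 0. Bmper lies between 31.2 and 38.1 CPM in the 3 ablated libraries and at 18.9 and 14.95 CPM in aged and control, and Bmp4 is highest in exhausted at 276 CPM.

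The share of cells with at least 1 UMI was compared in reticular-like cells after each cell had been thinned to 3000 UMIs, which left out 207 shallower cells in aged-injury, 316 in exhausted, 195 in naive, 774 in aged and 149 in control. Grem1 was found in 85.8% of thinned cells in aged-injury, 91.4% in exhausted, 86.7% in naive, 90.7% in aged and 89.8% in control, against 93.1%, 92.3%, 88.2%, 93.2% and 95.1% before thinning. Blood and other non-stromal cells, the kept cells outside the stroma and the endothelial clusters, had 26.5%, 5.22%, 5.57%, 11.1% and 12.01% of thinned cells with a Grem1 UMI in the same order. The source of these UMIs was not tested. The median depth of these non-stromal cells was 7444 to 8987 UMIs, against 7145 to 9206.5 UMIs in reticular-like cells. Bmp4 was found in 23.75% of thinned reticular-like cells in aged-injury, 52.3% in exhausted, 34.6% in naive, 25.99% in aged and 36.7% in control, and in 1.40% to 5.70% of non-stromal cells. Exhausted was the highest library for Bmp4 by this measure too. Bmper was found in 7.87% of thinned cells in aged-injury, 6.61% in exhausted, 8.85% in naive, 3.92% in aged and 3.28% in control, and in 0.148% to 2.56% of non-stromal cells. Before thinning the range was 38.4% to 66.7% of reticular-like cells for Bmp4 and 8.49% to 20.1% for Bmper.

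**Figure D3:**
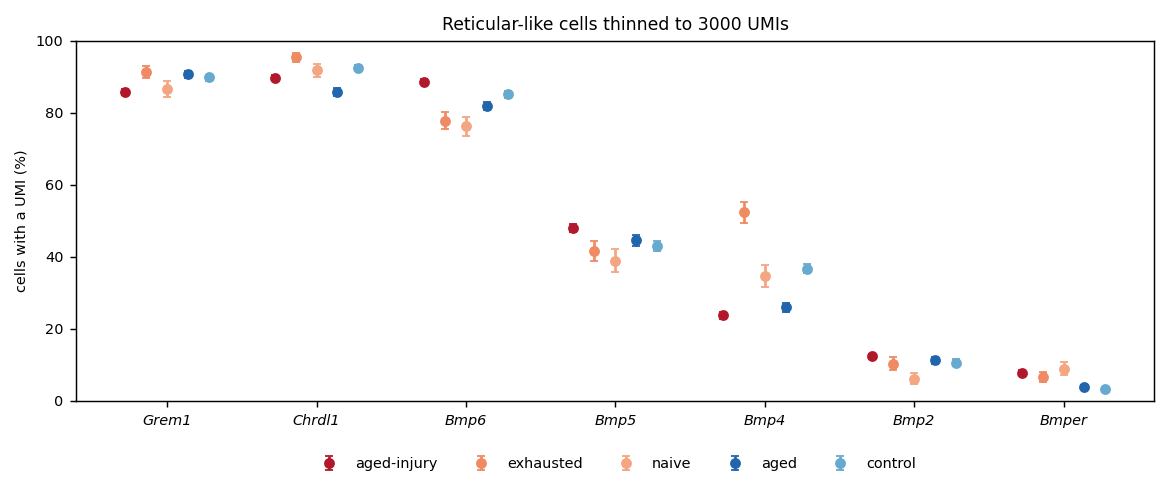
Percent of reticular-like cells with at least 1 UMI after thinning to 3000 UMIs per cell, by gene and library, with 95% Clopper-Pearson intervals for counting error. Bmp4 spans 23.75% in aged-injury to 52.3% in exhausted, and Bmper lies at 6.61% to 8.85% in the 3 ablated libraries and at 3.92% and 3.28% in aged and control.

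A gene was counted as different between a pair of libraries at a fold of 2, given at least 5 CPM in either. In stroma, naive over control had 2 of 10 genes higher, Bmp8a and Bmper, and 0 lower, against 4.96% of 10768 genes higher and 1.8% lower. For exhausted over control 1 of 9 genes was higher, Bmper, and 0 lower, against 2.14% and 1.03% of all genes measured. For exhausted over naive 0 of 10 were higher and 1 lower, Bmp8a, against 0.59% and 1.19%. For aged-injury over aged 2 of 10 were higher, Bmp3 and Bmp8a, and 1 lower, Grem1, against 6.17% and 2.5%. For aged over control none of 9 passed in either direction, against 0.686% higher and 0.898% lower. For aged-injury over naive 0 of 10 were higher and 1 lower, Nog, against 2.24% and 2.56%. The median log2 ratio of the genes counted was -0.23 for naive over control, 0.11 for exhausted over control, 0.15 for exhausted over naive, -0.07 for aged-injury over aged, -0.02 for aged over control and -0.02 for aged-injury over naive, against 0.15, 0.07, -0.08, 0.09, -0.04 and -0.08 over all genes measured.

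In reticular-like cells Nog and Bmper were past the fold of 2, both higher, among 8 genes measured for naive over control, where 1.98% of all genes were higher and 1.74% lower. The same pair was higher for exhausted over control, where the shares of all genes were 1.34% and 1.48%. With the 10 genes among the clustering genes neither passed in that comparison, at 1.45 for Nog and 1.87 for Bmper, and Bmper was at 1.88 with equal weight per cell. For aged-injury over aged 1 of 7 was higher, Bmper, against 1.67% higher and 1.5% lower, and its ratio was 1.97 with the 10 genes among the clustering genes. For aged-injury over naive 1 of 8 was lower, Nog, at a ratio of 0.140 (0.103 to 0.191), against 1.52% higher and 1.53% lower. Neither exhausted over naive nor aged over control had a gene of the 10 past that fold in reticular-like cells, where 0.451% and 0.918% of genes were higher and 0.706% and 0.711% lower.

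**Figure D4:**
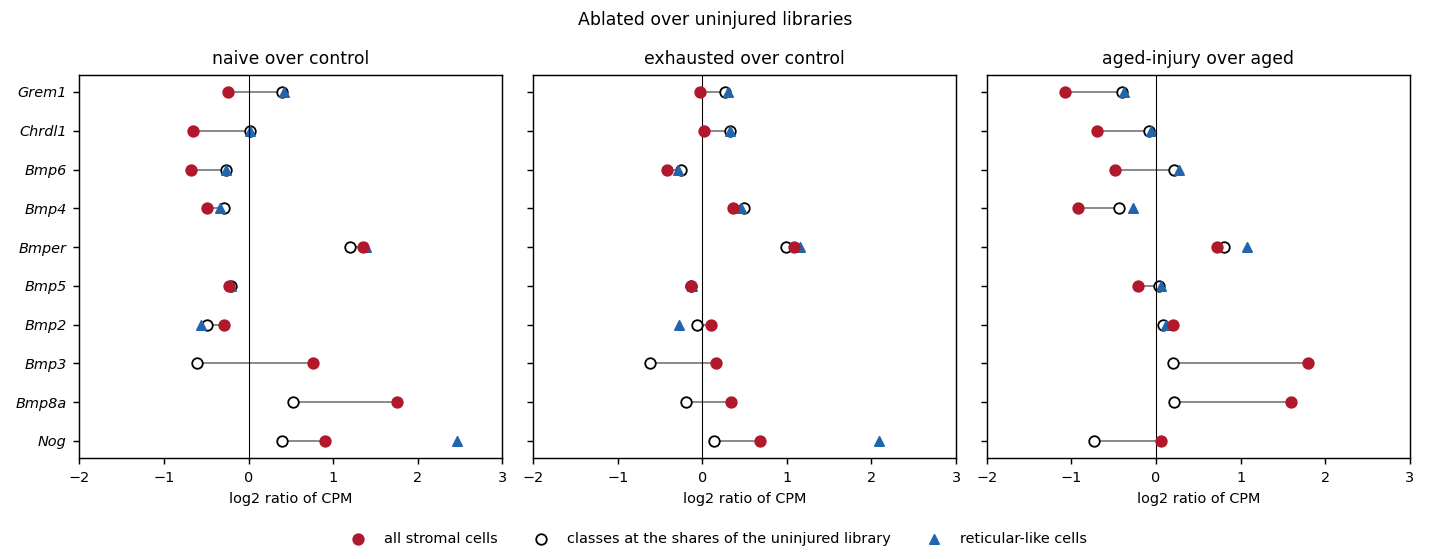
Log2 ratio of CPM for each gene in the 3 pairs of an ablated over an uninjured library, in all stromal cells (filled circles), with classes weighted by their shares of UMIs in the uninjured library (open circles) and in reticular-like cells (triangles, drawn where either level is at least 5 CPM). Bmper lies right of 0 by all 3 measures in all 3 panels, whereas the filled and open circles of Bmp3 lie far apart in the aged-injury panel, where the ratios are 3.47 and 1.15.

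Summed over the 6 ligands, the stroma had 920.4 CPM in aged-injury, 1094 CPM in exhausted, 883 CPM in naive, 1168 CPM in aged and 1220 CPM in control. Summed over the 4 antagonists it had 1610 CPM in aged-injury, 2802 CPM in exhausted, 2127 CPM in naive, 2985 CPM in aged and 2790 CPM in control. Both stromal sums were lower in aged-injury than in aged and lower in naive than in control, and the antagonist sum was nearly level between exhausted and control. The antagonist sum was nearly all Grem1 and Chrdl1, and Bmp6 was the largest part of the ligand sum. Bmper, Bmp3 and Bmp8a were instead higher in the ablated library of both pairs, and Nog was higher in naive than in control. In reticular-like cells the ligands summed to 1321 CPM in aged-injury, 1211 CPM in exhausted, 1067 CPM in naive, 1179 CPM in aged and 1289 CPM in control, so that aged-injury was above aged. The antagonists there summed to 2852 CPM in aged-injury, 4020.2 CPM in exhausted, 3835 CPM in naive, 3352 CPM in aged and 3219 CPM in control, so that naive was above control. In the unnamed cluster led by Gm20619 and Kcnq3 the ligands summed to 1265 to 1724 CPM, above the reticular-like sum of each library.

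The rest of the pathway was read from lists of other ligands, other antagonists, receptors, intracellular mediators and target genes. Of the 8 other ligands 1 was measured in stroma, Gdf10, at 37.4 CPM in aged-injury, 24.8 CPM in exhausted, 34.8 CPM in naive, 21.9 CPM in aged and 37.0 CPM in control, so no stromal sum stood 2-fold from its pair. In reticular-like cells Gdf10 was lower by more than that fold in aged-injury over aged, at a log2 ratio of -1.20 against 0.77 in stroma. Of all genes, 1.5% were lower by that fold in reticular-like cells. Of the 15 other antagonists 7 or 8 were measured in stroma. Fstl3 and Nbl1 were past a fold of 2 in aged-injury over aged, both higher, and Nbl1 was lower by that fold in aged over control. The shares of all genes measured were 6.17% higher in the former comparison and 0.898% lower in the latter. Fstl1, a follistatin-like secreted protein, was at 2063 CPM in aged-injury, 3114 CPM in exhausted, 3120.4 CPM in naive, 2097 CPM in aged and 2224 CPM in control, higher in exhausted and naive than in the other 3. Nbl1, a DAN-family antagonist, was at 41.8 CPM in aged-injury, 34.2 CPM in exhausted, 29.6 CPM in naive, 19.0 CPM in aged and 40.0 CPM in control stroma, with aged the lowest. In reticular-like cells Nbl1 was past a fold of 2 in naive over control, higher, and in exhausted over naive, lower. The shares of all genes there were 1.98% and 0.706%. Fstl3, a follistatin-like gene at 10.8 CPM in aged-injury and 3.07 CPM in aged, is below the level set for naming and is given because the count holds few genes.

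Of the 12 receptor and co-receptor genes 10 were measured, and in all 6 comparisons none was past a fold of 2 in stroma or in reticular-like cells. Of all genes measured, 0.451% to 6.17% were past that fold in a given direction, so 0 of 10 is near that share. Bmpr2, the main type II receptor for BMPs, was at 203 CPM in aged-injury, 202 CPM in exhausted, 224 CPM in naive, 199.9 CPM in aged and 193 CPM in control stroma. None of the intracellular mediators measured, the BMP SMADs, Smad4 and the Smurf ligases, was past that fold either, again near that share. Smurf2 was at 190.3 CPM in aged-injury, 205 CPM in exhausted, 249 CPM in naive, 194 CPM in aged and 176 CPM in control stroma.

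Of the 12 target genes 11 were measured. Id1, an early BMP target that blocks helix-loop-helix factors, was at 27.2 CPM in aged-injury, 46.6 CPM in exhausted, 42.8 CPM in naive, 20.3 CPM in aged and 20.2 CPM in control stroma. Naive and exhausted were the high libraries, at 2.12 (1.96 to 2.29) and 2.31 (2.13 to 2.51) times control, and aged-injury was at 1.34 times aged. In reticular-like cells Id1 was at 18.1 CPM in aged-injury, 46.3 CPM in exhausted, 40.0 CPM in naive, 16.7 CPM in aged and 17.4 CPM in control. Id2 was at 64.6 CPM in aged-injury, 133 CPM in exhausted, 134 CPM in naive, 51.6 CPM in aged and 88.4 CPM in control stroma. Smad6, an inhibitory SMAD that BMP signalling induces, was at 62.5 CPM in aged-injury, 103 CPM in exhausted, 135 CPM in naive, 71.3 CPM in aged and 72.9 CPM in control stroma. For all 3, exhausted and naive were the 2 highest libraries. In stroma Id1 and Atoh8 were past a fold of 2 in naive over control and Id1 in exhausted over control, all higher, and Id2 and Smad6 in aged-injury over naive, both lower. The shares of all genes measured in the same directions were 4.96%, 2.14% and 2.56%. Atoh8, at 12.3 CPM in naive and 5.16 CPM in control, is likewise below the level for naming. The median log2 ratio of the 11 target genes was 0.08 for naive over control, 0.26 for exhausted over control, 0.25 for aged-injury over aged and -0.38 for aged-injury over naive, where all genes measured had 0.15, 0.07, 0.09 and -0.08. Id3, another member of the family, differed less, at 507 CPM in aged-injury, 691 CPM in exhausted, 572 CPM in naive, 414 CPM in aged and 541 CPM in control stroma.

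The genes most like each of the 10 were sought by Pearson's r of log2(CPM + 1) over 43 sums of a stromal class or unnamed stromal cluster in 1 library with at least 50 cells, among 10446 genes. These points share libraries, so r is a description. Chrdl1 was most like Cxcl12 (0.96), the chemokine that defines reticular cells, Slc26a7 (0.93) and Adipoq (0.93), the adiponectin gene. Grem1 was most like Kng2 (0.93), Cxcl12 (0.93) and Esm1 (0.92). Bmp6 was most like Gm46329, Aldh3a1 and Stat5b (0.93 each), and Bmp4 like Fzd5 (0.90), Ackr4 (0.90) and Pappa (0.88). Bmp3 was most like Bglap2 (0.89), an osteocalcin gene, Fat3 (0.89) and Insc (0.89), and Bmp8a like Fam20c (0.87), the kinase of secreted bone proteins, Loxl4 (0.84) and Rap1gap (0.83). Nog was most like Car8 (0.73), Comp (0.67), a cartilage matrix gene, and Olfml3 (0.65). Bmp2 was most like Pdgfa (0.78), Inafm2 (0.77) and Mef2c (0.75), Bmp5 like Peg13 (0.86), Hdgfl3 (0.86) and Gprasp1 (0.85), and Bmper like Dclk2 (0.81), N4bp2 (0.77) and Zcchc4 (0.76).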

How the data were processed

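The values deposited by the authors were UMI counts per gene and cell, 1 matrix per library and 5 libraries, with no normalisation per the file contents. Seurat 5.1 and the build GRCm39 are named in the submitters' processing notes. The aligner and cell caller: not given in the sources used here. The depth was 58895655 to 224155538 UMIs per library.

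Libraries were joined by gene symbol. The filter on cells required 500 genes, 1000 UMIs and under 25% of UMIs from mitochondrial genes. Counts were scaled to 10000 per cell, 2000 variable genes without the 10 genes, the pathway genes and the reporters were reduced to 30 principal components, and 38 Leiden clusters were made at resolution 1.0 on 15 neighbours (seed 0, Python 3.11.15, numpy 2.4.6, scipy 1.17.1, scikit-learn 1.9.0, leidenalg 0.10.2, igraph 0.11.9). A class name needed at least 3 markers and a fraction of 0.4 of its list, each in at least 10% of cells and 1.5-fold higher than elsewhere, with no other class ahead among the 10 leading genes, and an unnamed cluster was stromal when a stromal class matched best and Ptprc was under 100 CPM. These rules for names were chosen once the clusters were known, and class names are rebuilt here, not the authors'. No doublet caller was run, and doublets remain.

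UMIs were summed per library and class as CPM with exact Poisson intervals, ratios have exact conditional binomial intervals and shares exact Clopper-Pearson intervals, all at 95%. UMIs were summed over cells of 1 library, so intervals cover counting error only, and no test between groups exists with 1 library each. The ratios, their intervals and the calls at a fold of 2 were checked on simulated counts, and the other steps were not. Ratios at fixed class shares use classes and unnamed clusters with at least 20 cells in both libraries, and were added after the class shares had been seen. Counts of genes past a fold of 2 cover those that reach 5 CPM in 1 library of the pair. Named pathway genes had at least 20 CPM and that fold, up to 4 per list and comparison, or were the most abundant of their list, and each of the 10 genes has its 3 most similar genes. One gene that this rule names is not reported here. The genes, lists and comparisons were chosen with earlier results of these data known. The alternatives were TMM scaling, equal weight per cell, a stricter cell filter (1000 genes, 2000 UMIs, 10% mitochondrial), resolution 2.0, gating cell by cell, clustering with the genes included, no minimum level, possible doublets left out, and, chosen after seeing the data, leaving out shallow clusters or clusters mostly of 1 library.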

Additional observations from a re-analysis of the deposited data

Results flagged for a closer look

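For some genes the ratio after ablation lay on opposite sides of 1 at 15 weeks (naive over control) and at 18 months (aged-injury over aged), with 1 library on each side, and these differences were not tested. The time after surgery also differs, 2 weeks in naive and 1 week in aged-injury. Aged-injury was also the largest library, with 224155538 UMIs against 58895655 to 95397522 in the others. Neutrophil markers in its stroma summed to 8.5 CPM, against 62.9 to 245 CPM in the others. The part of these library differences in the ratios with aged-injury was not tested. In stroma the ratio of Bmp2 was 0.818 in the young pair and 1.15 in the aged pair, a log2 difference of -0.49. In reticular-like cells the ratio of Bmp2 was 0.679 in the young pair and 1.08 in the aged pair, a log2 difference of -0.67. The Bmp5 ratio there was 0.865 in the young pair and 1.04 in the aged pair, a log2 difference of -0.27. The Bmp6 ratio there was 0.834 in the young pair and 1.21 in the aged pair, a log2 difference of -0.53. The Grem1 ratio there was 1.34 in the young pair and 0.770 in the aged pair, a log2 difference of 0.79. With each cell gated by itself, the aged pair's ratio in reticular-like cells was 0.995 for Bmp2, 0.974 for Bmp5 and 0.868 for Bmp6, so those 3 were no longer on opposite sides of 1. For Grem1 in reticular-like cells the ratio stayed between 1.03 and 1.40 in the young pair and between 0.579 and 0.794 in the aged pair over the alternatives run.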

How the results depend on the processing

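Of the 60 stromal ratios (10 genes in 6 comparisons), 50 kept their side of 1 in all 10 alternatives, and of the 60 in reticular-like cells 47 did in 8. The alternative without a minimum level leaves the ratios themselves unchanged, so it could not move any of them. The count of genes at least 2-fold lower in aged-injury over aged was 1 (Grem1) as reported and 0 with equal weight per cell, 0 with possible doublets left out and 0 without clusters mostly of 1 library. The count lower in aged-injury over naive was 1 (Nog), 0 with TMM scaling and 2 (Bmp4 and Nog) with the stricter cell filter. The count higher in exhausted over control was 1 (Bmper), 2 (Nog and Bmper) with the stricter filter and 0 without the shallow clusters. The count lower in aged over control was 0, and 1 (Bmp3) with the stricter filter. The cause of these changes was not tested. TMM scaling moved stromal log2 ratios by -0.18 for naive over control, 0.10 for exhausted over naive and 0.23 for aged-injury over naive. It put 3 stromal ratios near 1 on the other side: Chrdl1 in exhausted over control (0.969) and in aged-injury over naive (1.08), and Bmp6 in aged over control (1.01). The stricter filter put Grem1 in naive over control at 1.02 in stroma, and Bmp3 in aged-injury over aged at 5.62. No paired analysis was possible because each group is 1 library. Classes of under 50 cells, such as osteoblast-like cells outside aged-injury, and genes near 1 CPM limit what the counts can show.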
